A study of Mus musculus with 12 samples.

Results

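The Rab genes encode small GTPases of the Ras superfamily, and the set described here holds every gene of the deposited expression table whose symbol is Rab followed by a number and, where present, a letter and a further digit. The rule used the symbol alone and found 57 Rab genes among 23230 genes. Of these, 42 reached 1 FPKM (mapped fragments scaled to gene model length and library size) in at least 1 library and entered the tests, together with 11502 genes in all. The other 15 stayed under 1 FPKM in all 12 libraries. The highest of them was Rab33a, at 0.958 FPKM in 1 WT growing library, and Rab19 was listed at 0 throughout.

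RNA of mouse oocytes was sequenced in 6 groups of 2 libraries, each made from 10 oocytes on a C57BL6/ICR hybrid strain background. WT oocytes and oocytes of Zar1/2-null females, which carry CRISPR/Cas9 knockouts of both Zar1 and Zar2, were taken at 3 stages. Growing oocytes came from 13.5-day-old females by the labels (the study's methods give a slightly younger age), germinal vesicle (GV) oocytes from 21-day-old females 44 h after PMSG, and metaphase II (MII) oocytes from the oviducts of PMSG-primed females 16 h after hCG. These oocytes were taken by time after hCG, and the study describes null oocytes of this group as arrested before MII, so genotype and meiotic stage cannot be told apart in any MII comparison and MII is used here as the name of the group. The null alleles are present in every cell from the germline on, no group carried a single knockout, and the sources do not say whether the 2 libraries of a group came from separate females, so each test measures the spread between libraries. A library of 10 oocytes cannot separate a lower level in each oocyte from a loss in some of them.

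Rab proteins switch between a GDP-bound form in the cytosol and a GTP-bound form on a membrane, where they recruit motors, tethers and other effectors, and each organelle of the secretory and endocytic routes carries its own Rab proteins. Guanine nucleotide exchange factors (GEFs) switch them on, GTPase-activating proteins (GAPs) switch them off, and prenylation with the escort protein and GDI lets them enter and leave membranes. In the mouse oocyte, RAB11A-positive vesicles organise a cytoplasmic actin network and carry it toward the surface, while RAB27A and RAB3A are known for the transport and release of cortical granules. A fully grown oocyte no longer transcribes, and much of its stored mRNA is cleared between GV and MII, with part of the remainder translated through cytoplasmic polyadenylation elements (CPEs) in the 3′UTR.

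The levels were deposited after scaling to ERCC spike-in RNA, which keeps differences in total mRNA per oocyte, and the number of reads behind a value is not in the files. Total scaled FPKM was 480800 to 638056 in WT growing and GV libraries, 401824 to 567063 in the null ones, 121121 and 128281 in WT MII and 176380 and 209875 in null MII libraries. The whole-table shift therefore stands beside each Rab result as the median log2 fold change of all genes, and the direction without scaling is given where it differs. Zar1l (Zar2) was at 504 to 644 FPKM in WT growing and GV libraries and at 13.2 to 20.9 FPKM in the null ones. Zar1 was at 423 to 725 FPKM in the same WT libraries and at 136 to 460 FPKM in the null ones, but at MII it was 83.6 and 72.4 FPKM in WT and 190 and 194 FPKM in null oocytes, so its transcript level does not by itself mark the null libraries. At least 10 of 11 oocyte markers reached 1 FPKM in each library, with a summed share of 2.94 to 4.67% of total FPKM. The 15 granulosa and cumulus markers summed to 4.31 to 30.1 FPKM, with Ptx3 at 0 in each library, and 4 immune markers to at most 3.07 FPKM. The libraries do not mark the strand as far as the sources say, so reads in exons shared with a neighbour cannot be told apart. This applied to 12 Rab genes, to 65.0% of exon bases in Rab4b (annotated genes AC157553.1 or Mia1) and to 1.3% to 21.5% in the others. Mia1 had a mean of at most 0.0806 FPKM in any group. Rab6a shares 19.0% of its exon bases with the more abundant Mrpl48. Mrpl48 had means of 504 FPKM in WT GV and 11.9 FPKM in WT MII oocytes, against 38.5 and 21.9 FPKM for Rab6a.

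Rab transcripts were dominated by a few endolysosomal and recycling members. Rab7, which drives late endosomes to lysosomes, was measured at 298 and 365 FPKM in WT growing, 247 and 178 FPKM in WT GV and 46.4 and 52.0 FPKM in WT MII oocytes. Rab11a, of recycling endosomes, was at 267 and 264, then 213 and 164, then 63.2 and 60.9 FPKM in the same order. Rab38, of lysosome-related organelles, was at 262 and 275, then 182 and 134, then 14.9 and 21.9 FPKM. These 3 genes led the Rab list in each growing and GV library, while Rab14, which works between Golgi and endosomes, led at MII with 66.2 and 65.1 FPKM in WT. Rab21, of early endosomes and integrin traffic, stood at 63.1 and 73.6 FPKM and Rab2a, of ER-to-Golgi traffic, at 50.2 and 50.1 FPKM in WT GV oocytes. Within each of the 2 WT GV libraries the order was Rab7, Rab11a and Rab38, although their levels overlapped between the libraries. All 3 lay above Rab14, Rab21 and Rab2a. With 2 libraries this order carries no test. The 3 highest Rab genes of a library made up 41.7 to 54.2% of its summed Rab FPKM. That sum was 1607 and 1706 FPKM in WT growing, 1331 and 1084 in WT GV and 342 and 354 FPKM in WT MII oocytes, against 1351 and 1200, 755 and 952, and 372 and 359 FPKM in the null groups. As a share of total FPKM, which the spike-in scaling cannot move, Rab transcripts were 0.267 and 0.292% in WT MII and 0.177 and 0.203% in null MII libraries, with no overlap, while the GV shares were 0.231 and 0.225% in WT and 0.188 and 0.226% in null libraries and overlapped. With 2 libraries against 2, an exact permutation test cannot give less than 0.33, so these sums carry no test.

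**Figure D1:**
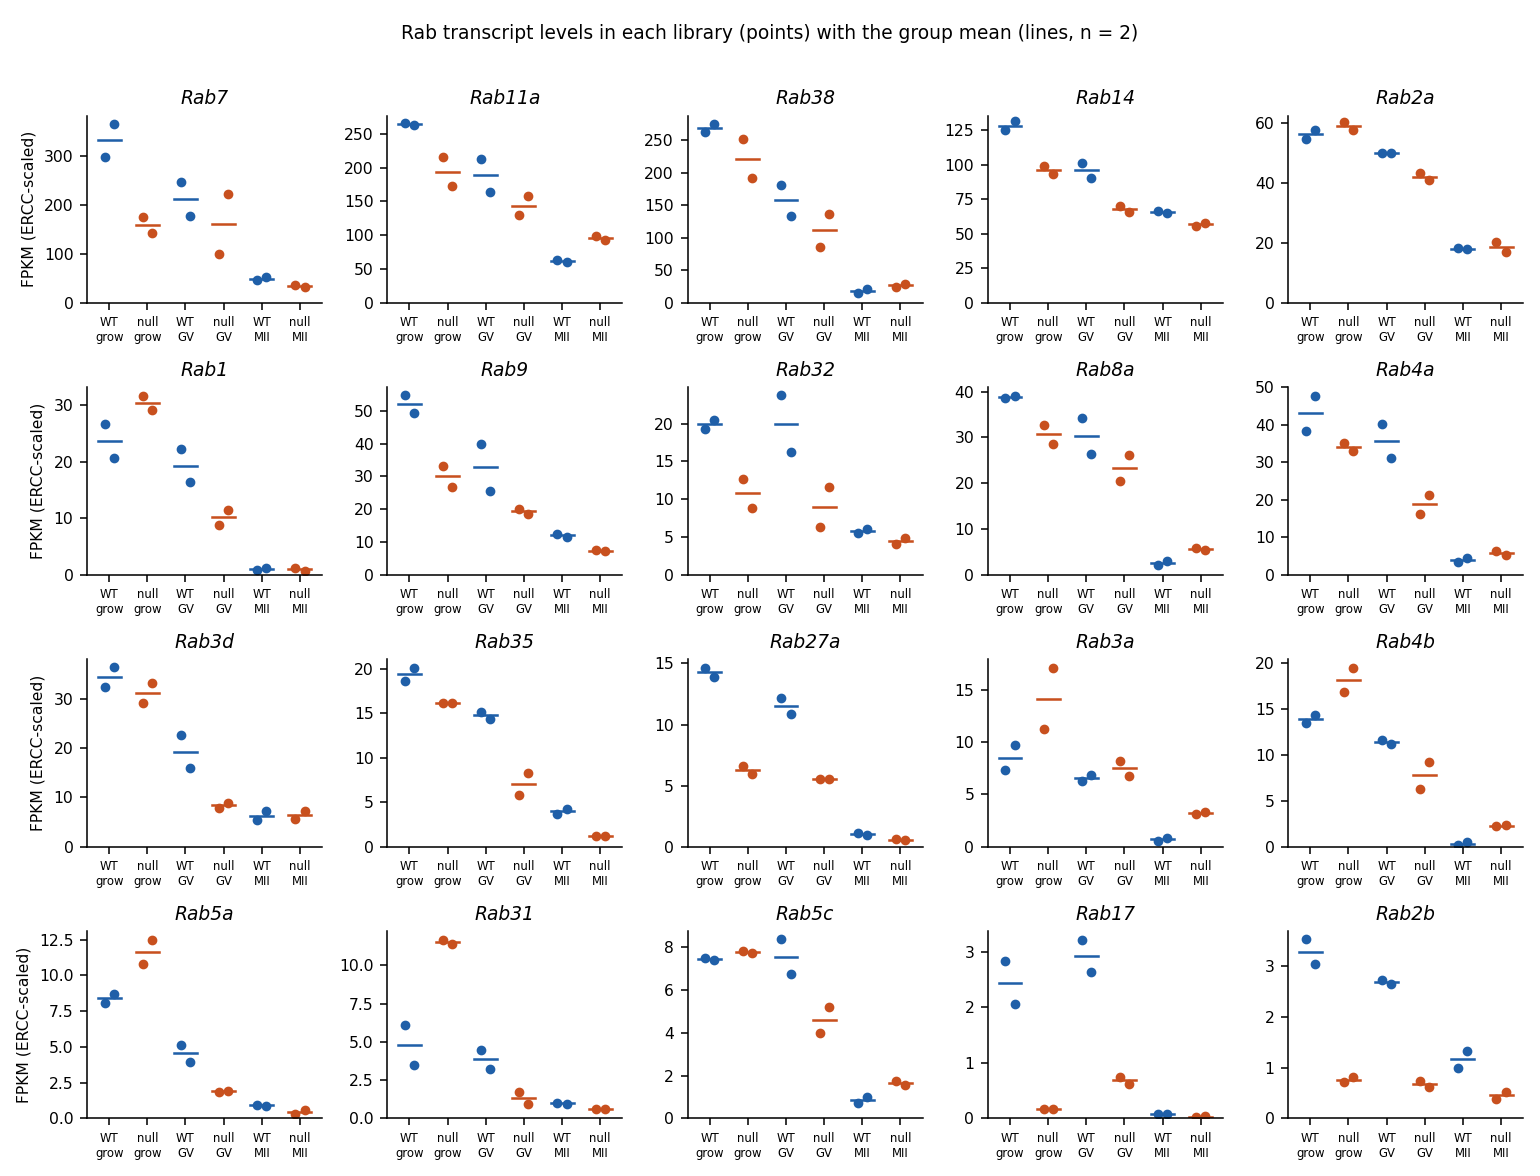
ERCC-scaled FPKM (vertical axes from 0, one scale per gene) of 20 Rab genes in the 12 libraries, with WT in blue, Zar1/2-null in orange and a line at each mean of 2 libraries. Rab7, Rab11a and Rab38 stand highest in growing oocytes, and Rab27a, Rab17 and Rab2b stand lower in each null library than in any WT library of the same stage.

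The first question was how the Rab genes differed between genotypes in growing oocytes. In null oocytes, 9 of 42 were higher and 8 were lower, where 10.6% of all genes tested were called higher and 24.4% lower (limma on log2(FPKM + 1), Benjamini-Hochberg over all genes, adjusted p under 0.05). The median log2 fold change was -0.09 over the Rab genes and -0.16 over all genes. Rab31, a relative of RAB5 at the trans-Golgi and early endosomes, was at 6.12 and 3.49 FPKM in WT and 11.7 and 11.4 FPKM in null growing oocytes. The groups did not overlap, and the log2 fold change was 1.15 ± 0.22 (SE, adjusted p = 0.00248). Rab3a was at 7.28 and 9.68 FPKM in WT and 11.2 and 17.1 FPKM in null oocytes (log2 fold change 0.66 ± 0.20, adjusted p = 0.0275), and Rab5a, the early endosome fusion GTPase, at 8.04 and 8.73 FPKM in WT and 10.8 and 12.5 FPKM in null oocytes (0.43 ± 0.15, adjusted p = 0.045). The other 6 called higher were Rab39b and Rab30 of the Golgi, Rab24 and Rab20 among the endosomal members, Rab7l1 and Rab40c, with log2 fold changes of 0.37 to 1.00. Rab20 reached 1 FPKM only in null growing replicate 1, at 1.32 FPKM. It thus entered the tests only through the group where it was called higher, so its call is no independent support. The fit without that library did not test Rab20. All 9 were also called higher without ERCC scaling and with median scaling.

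The 8 Rab genes that fell in null growing oocytes included the most abundant member. Rab7 was at 298 and 365 FPKM in WT and 174 and 142 FPKM in null oocytes (log2 fold change -1.07 ± 0.31, adjusted p = 0.0215). Rab9, which returns cargo from late endosomes to the Golgi, was at 54.8 and 49.2 FPKM in WT and 33.3 and 26.9 FPKM in null oocytes (-0.78 ± 0.20, adjusted p = 0.0106). Rab32, a close relative of Rab38, was at 19.3 and 20.5 FPKM in WT and 12.7 and 8.87 FPKM in null oocytes (-0.85 ± 0.26, adjusted p = 0.0272). These 3 of the 5 late endosome and lysosome members lay lower in both null libraries, whereas Rab38, at 262 and 275 against 252 and 191 FPKM, did not pass the test and Rab7l1, the fifth member, was among those called higher. Rab27a, of cortical granules and other secretory granules, was at 14.6 and 13.9 FPKM in WT and 6.63 and 5.91 FPKM in null oocytes (-1.07 ± 0.13, adjusted p = 0.000119). Rab8b, of traffic to the cell surface, was at 13 and 13.4 against 9.60 and 8.0 FPKM (-0.54 ± 0.14) and Rab14 at 125 and 132 against 99.4 and 93.5 FPKM (-0.41 ± 0.13). The strongest falls were in 2 members of low level, named after their values were seen. Rab17, known from epithelial recycling endosomes, went from 2.82 and 2.07 FPKM to 0.168 and 0.165 FPKM (-1.55 ± 0.13), and Rab2b, the lesser partner of Rab2a, from 3.52 and 3.03 FPKM to 0.713 and 0.812 FPKM (-1.28 ± 0.13). Rab2b was the only Rab gene whose group means lay more than 3-fold apart with means under 1 FPKM set to 1, in a table where that rule took 0.982% of genes as higher and 3.54% as lower.

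Among these 17 calls, those of Rab31, Rab39b, Rab30, Rab17, Rab2b and Rab27a held in each of the 12 fits that left out 1 library, and the other 11 were lost in 1 to 8 of them. Without null growing replicate 2 the adjusted p was 0.133 for Rab7, 0.205 for Rab32, 0.0951 for Rab9, 0.115 for Rab8b, 0.172 for Rab14, 0.248 for Rab3a and 0.235 for Rab5a. Without ERCC scaling Rab32, Rab8b and Rab14 were no longer called and kept their sign, and Rab7 was lost as well under median scaling. The summed granulosa and cumulus markers moved with genotype at this stage, at 30.1 and 24.7 FPKM in WT and 12.8 and 8.30 FPKM in null growing libraries. Most of each WT sum was Cyp19a1, at 19.0 and 16.7 FPKM in WT and 7.72 and 2.53 FPKM in null libraries. Of 6 such markers tested, 4 were called lower and 0 higher, and Hsd3b1 lay at 1.62 and 0.626 against 1.70 and 2.04 FPKM. The immune marker Cd68 was at 0.996 and 0.458 FPKM in WT and 3.02 and 3.07 FPKM in null growing libraries. At GV, 2 of the 6 granulosa and cumulus markers tested were called higher and 2 lower in null oocytes. Inha was at 0.410 and 0.512 against 1.99 and 1.73 FPKM and Gja1 at 0.229 and 0.141 against 1.47 and 1.33 FPKM. Kitl went the other way, at 1.46 and 0.971 against 0.168 and 0.101 FPKM, as did Fshr, at 1.16 and 1.22 against 0.537 and 0.491 FPKM. The part of these markers in the Rab results was not tested.

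At GV the Rab genes moved mostly one way. In null GV oocytes 23 of 42 fell and 1 rose, where 40.6% of all genes fell and 2.83% rose, and the median log2 fold change was -0.52 over the Rab genes and -0.38 over all genes tested. None passed the 3-fold rule in either direction, which 0.461% of all genes passed as higher and 4.20% as lower. By role, the calls took in 5 of 9 ER and Golgi members, 6 of 9 early endosome members, 5 of 7 recycling members, 2 of 5 late endosome and lysosome members, 4 of 9 members of exocytosis and the cell surface and 1 of the 3 remaining members, and the last 3 of these shares lay near or under that of all genes. Rab3d, of secretory granules, was at 22.7 and 15.9 FPKM in WT and 7.77 and 8.95 FPKM in null GV oocytes (-1.10 ± 0.20, adjusted p = 0.00143). Rab35, of endocytic recycling and cytokinesis, was at 15.2 and 14.4 FPKM in WT and 5.84 and 8.30 FPKM in null oocytes (-0.98 ± 0.16, adjusted p = 0.000666). Rab27a was again lower, at 12.1 and 10.8 against 5.51 and 5.51 FPKM (-0.94 ± 0.13, adjusted p = 0.000268). Rab4a, of rapid recycling, was at 40.1 and 31.3 against 16.2 and 21.4 FPKM (-0.89 ± 0.20), Rab32 at 23.8 and 16.2 against 6.29 and 11.7 FPKM (-1.10 ± 0.26) and Rab1, which starts ER-to-Golgi traffic, at 22.2 and 16.3 against 8.86 and 11.5 FPKM (-0.85 ± 0.21). In none of these 6 genes did the null libraries reach the WT libraries, which adds no separate support for calls made on the same libraries. Rab17 and Rab2b remained low in null oocytes, at 0.753 and 0.625 and at 0.727 and 0.623 FPKM, against 3.21 and 2.64 and 2.71 and 2.64 FPKM in WT.

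The size of the GV fall depended on the scaling. The 23 lower calls and 1 higher call became 8 and 2 when the ERCC factors were undone, and 5 and 2 with median scaling. Rab17, Rab2b, Rab3d, Rab35 and Rab5b fell under all 3 scalings and in every fit without 1 library, while Rab14, Rab6a and Rab8b, which fell with ERCC scaling, turned to between 0.05 and 0.10 on the log2 scale under median scaling. The call of Rab32 was lost without WT GV replicate 1 (adjusted p = 0.0731) and that of Rab1 likewise (0.0851). Rab13, a relative of Rab8a and the 1 member that rose, was at 1.96 and 1.89 FPKM in WT and 3.21 and 3.30 FPKM in null GV oocytes (0.54 ± 0.17, adjusted p = 0.0275), a call that held under the other scalings and was lost in 4 of the 12 fits without 1 library, with 0.0941 without WT GV replicate 1.

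**Figure D2:**
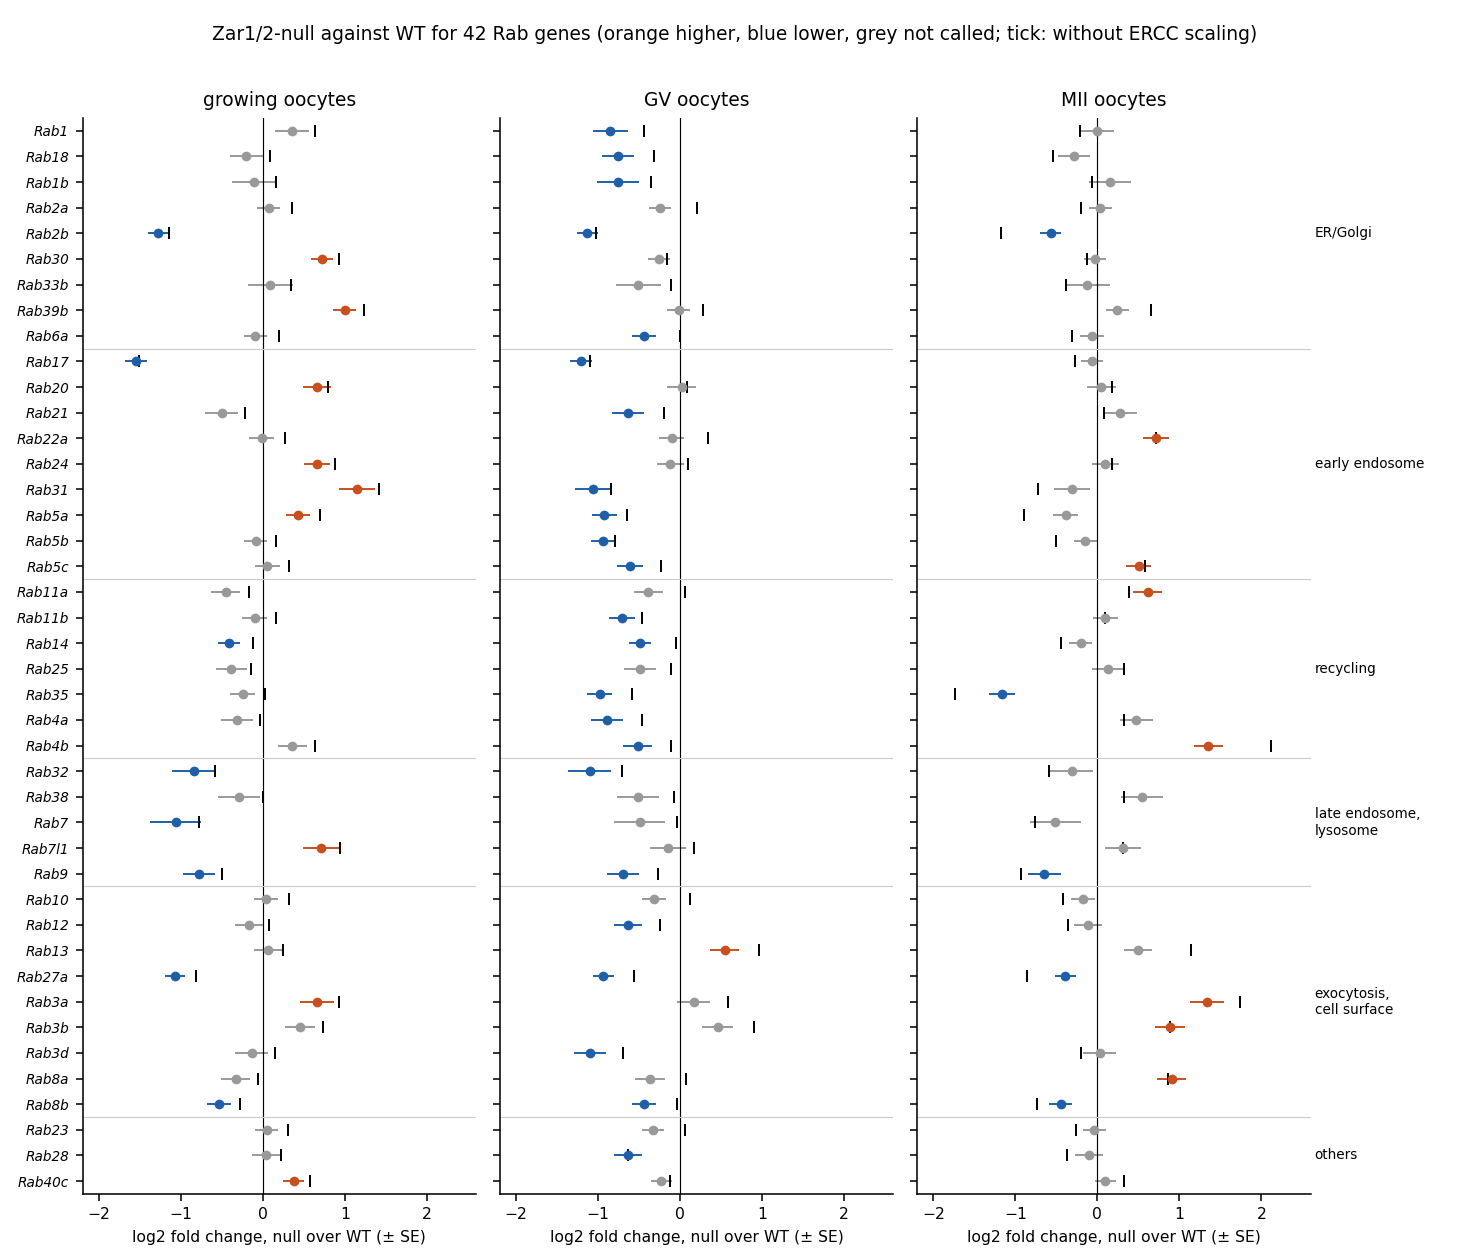
Log2 fold change of Zar1/2-null over WT (horizontal axes) for the 42 Rab genes tested, grouped by role, in growing, GV and MII oocytes, with bars of 1 SE, orange and blue for genes called higher and lower by limma, and a tick at the value without ERCC scaling. Most points lie left of 0 at GV, where 23 were called lower, whereas 7 were called higher and 5 lower at MII.

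At MII the genotypes differed in both directions, and the Rab genes were called about as often as other genes. In null MII oocytes 7 of 42 were higher, against 21.5% of all genes, and 5 were lower, against 10.3%. The median log2 fold change was 0.01 over the Rab genes and 0.06 over all genes, and all 12 calls kept their direction and were called under both other scalings. Rab11a was at 63.2 and 60.9 FPKM in WT and 98.9 and 92.3 FPKM in null MII oocytes (0.61 ± 0.18, adjusted p = 0.0198). Rab8a, of exocytic traffic, was at 2.18 and 2.91 FPKM in WT and 5.85 and 5.37 FPKM in null oocytes (0.91 ± 0.18, adjusted p = 0.00223). The remaining 5 that rose lay under 5 FPKM: Rab3a at 0.493 and 0.865 against 3.15 and 3.28 FPKM, Rab4b at 0.136 and 0.466 against 2.29 and 2.31 FPKM, Rab3b at 1.52 and 2.37 against 4.92 and 3.90 FPKM, Rab22a at 1.5 and 1.63 against 3.69 and 2.78 FPKM, and Rab5c at 0.736 and 1.01 against 1.77 and 1.55 FPKM. In each of these 7 genes both null libraries lay above both WT libraries. The calls came from the same libraries, so this adds no separate support, and the share over all genes is not given. Rab3a was the 1 Rab gene more than 3-fold higher by group means set to at least 1 FPKM, a rule that 7.49% of all genes met, and 29 of its exon bases overlap Mpv17l2.

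The 5 Rab genes that fell in null MII oocytes were led by Rab35, at 3.68 and 4.24 FPKM in WT and 1.21 and 1.20 FPKM in null oocytes (-1.17 ± 0.16, adjusted p = 0.000147). It was the 1 Rab gene more than 3-fold lower, where 1.32% of all genes were. Rab9 was at 12.5 and 11.4 against 7.40 and 7.17 FPKM (-0.65 ± 0.20, adjusted p = 0.0265) and Rab8b at 6.76 and 6.54 against 4.38 and 4.84 FPKM (-0.45 ± 0.14, adjusted p = 0.0323). Rab27a, at 1.12 and 0.945 against 0.579 and 0.519 FPKM, and Rab2b, at 0.995 and 1.33 against 0.389 and 0.520 FPKM, were also lower, so Rab2b, Rab27a, Rab9 and Rab8b were called lower in null oocytes at each of the 3 stages. For Rab8b at GV that direction rests on the ERCC scaling, as stated above, and its growing call was lost without that scaling. At GV, Rab27a and Rab9 kept their sign but were not called with median scaling. Of these genes only Rab2b was called lower at each stage under all 3 scalings. The share of all genes called lower at each of the 3 stages is not given, so the number of these genes carries no result about the Rab set. Of the 12 calls at MII, those of Rab35, Rab4b, Rab3a, Rab8a, Rab3b and Rab22a held in each fit without 1 library. The call of Rab11a was lost in 4 such fits (0.10 without null MII replicate 1), that of Rab5c in 3 (0.170 without WT MII replicate 1), and those of Rab9, Rab8b, Rab27a and Rab2b in 2 to 5 (up to 0.181 for Rab8b without null MII replicate 1). Of the 11 oocyte markers, 8 were also called higher and 1 lower in null MII oocytes.

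The difference between the stages in genotype effect was tested directly. From growing to GV, 10 Rab genes had a lower genotype effect at GV, where 11.3% of all genes did, and 0 a higher one, where 2.58% did (limma, with 0 Rab genes at an unadjusted p under 0.05 in that direction). This contrast was added after the data were seen. Its 2 most negative values belonged to Rab31, at 4.48 and 3.24 FPKM in WT and 1.73 and 0.955 FPKM in null GV oocytes after the reverse order in growing oocytes (-2.21 ± 0.31, adjusted p = 0.00227), and Rab5a, at 5.12 and 3.96 FPKM in WT and 1.87 and 1.94 FPKM in null GV oocytes (-1.35 ± 0.21, adjusted p = 0.00339). Rab31 and Rab5a were called higher in null growing and lower in null GV oocytes, and both differences between stages also held without ERCC scaling, with median scaling and in each fit without 1 library. The other 8, from Rab1 at -1.21 to Rab35 at -0.74, were no longer called under the other scalings. In WT oocytes, 10 Rab genes fell from growing to GV and Rab12 rose, where 28.7% of all genes fell and 2.77% rose, with a median of -0.29 over both sets. Without ERCC scaling and with median scaling only Rab11b, at 7.40 and 7.75 FPKM in growing and 3.08 and 2.83 FPKM in GV oocytes, still fell.

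Rab transcripts differed widely in how much was left after maturation. In WT oocytes 40 of 42 Rab genes were lower at MII than at GV, where 93.4% of all genes were, and in null oocytes 31 were, where 68.7% of all genes were, so both counts lay near the background. None was higher in either genotype (limma, 0 at an unadjusted p under 0.05), as for 0.104% and 0.209% of all genes. The median log2 fold change was -1.48 over the Rab genes and -1.28 over all genes in WT, and -0.81 and -0.72 in null oocytes. In WT oocytes the MII level was 68.7% of the GV level for Rab33b of the Golgi, 68.5% for Rab14, 68.2% for Rab8b, 57.2% for Rab10 and 57.0% for Rab6a, of traffic from the Golgi. Rab6a shares exon bases with Mrpl48, as stated above, and the part of shared reads in its value was not tested. Among Rab genes with a WT GV mean of 5 FPKM or more, the lowest were 1.22% for Rab25, a relative of Rab11a, 2.64% for Rab4b, 4.87% for Rab1, 6.74% for Rab22a and 8.41% for Rab8a, and between the ends 32.9% for Rab11a, 23.2% for Rab7 and 11.6% for Rab38. These directions rest on the ERCC scaling for many members: without it 19 Rab genes fell and 7 rose in WT, with median scaling 17 fell and 12 rose, and the sign turned under 1 or both for 17 of the 40, among them Rab14, Rab8b, Rab10, Rab6a, Rab11a and Rab2a. Rab1, Rab4b, Rab22a, Rab25, Rab8a, Rab21 and 11 others fell under each scaling. In null oocytes the same counts were 18 lower and 9 higher without ERCC scaling and 15 lower and 11 higher with median scaling. The lowest percents in WT rest on MII values near 0, with Rab25 at 0.0511 and 0.101 FPKM and Rab4b at 0.136 and 0.466 FPKM.

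More of several Rab transcripts was left after maturation in null oocytes, at a share of genes near that of the table. The difference in maturation change between genotypes was called higher in null oocytes for 16 of 42 Rab genes, where 33.9% of all genes were, and lower for 0, where 0.643% were (limma, 0 Rab genes at an unadjusted p under 0.05). The median difference was 0.53 over the Rab genes and 0.48 over all genes. Rab4b fell from 11.6 and 11.2 FPKM to 0.136 and 0.466 FPKM in WT, and from 6.33 and 9.21 FPKM to 2.29 and 2.31 FPKM in null oocytes. The MII level was thus 2.64% of the GV level in WT and 29.6% in null oocytes (difference 1.87 ± 0.25 on the log2 scale, adjusted p = 0.000237). Rab4b shares 65.0% of its exon bases with neighbours, as stated above, and the part of shared reads in its values was not tested. Rab4a went from 40.1 and 31.3 FPKM to 3.33 and 4.46 FPKM in WT and from 16.2 and 21.4 FPKM to 6.23 and 5.34 FPKM in null oocytes (1.37 ± 0.28, adjusted p = 0.00329). Rab8a went from 34.2 and 26.4 FPKM to 2.18 and 2.91 FPKM in WT and from 20.4 and 26.1 FPKM to 5.85 and 5.37 FPKM in null oocytes (1.27 ± 0.25, adjusted p = 0.003). Rab5c went from 8.35 and 6.71 FPKM to 0.736 and 1.01 FPKM in WT and from 4.0 and 5.18 FPKM to 1.77 and 1.55 FPKM in null oocytes (1.12 ± 0.22, adjusted p = 0.00264). These 4 and Rab17 (1.15 ± 0.19) were called under all 3 scalings and in each fit without 1 library. Rab17 was under 1 FPKM in all null GV and MII libraries, where log2(FPKM + 1) understates changes. Its MII level was 2.69% of the GV level in WT and 4.32% in null oocytes, or 9.14% and 9.18% without ERCC scaling. The call of Rab17 therefore does not show that more of its transcript was left in null oocytes.

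Rab3a and Rab3d gave similar differences that rested more on the scaling. Rab3a went from 6.29 and 6.82 FPKM to 0.493 and 0.865 FPKM in WT and from 8.20 and 6.78 FPKM to 3.15 and 3.28 FPKM in null oocytes (1.17 ± 0.29, adjusted p = 0.010), and was not called without ERCC scaling. Rab3d ended at the same level in both genotypes, 5.44 and 7.16 FPKM in WT and 5.58 and 7.31 FPKM in null MII oocytes, so its difference of 1.13 ± 0.28 came from the GV level given above, and it was lost without WT MII replicate 1 (adjusted p = 0.0504) and under the other scalings. Rab11a (1.00 ± 0.25) kept 32.9% of its GV level in WT and 66.7% in null oocytes and was called in each fit without 1 library but under no other scaling. For Rab27a and Rab2b the difference was positive with ERCC scaling (0.55 and 0.57) and negative without it (-0.30 and -0.15). Rab35, Rab7 and Rab8b lay on the other side, with 26.8%, 23.2% and 68.2% of the GV level left in WT and 17.0%, 21.3% and 66.7% in null oocytes, and none of these 3 differences was called with ERCC scaling, while without it Rab35 and Rab8b were called lower. A lower GV level in null oocytes enters both the genotype difference at GV and this difference, so the 2 sets of values share libraries.

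**Figure D3:**
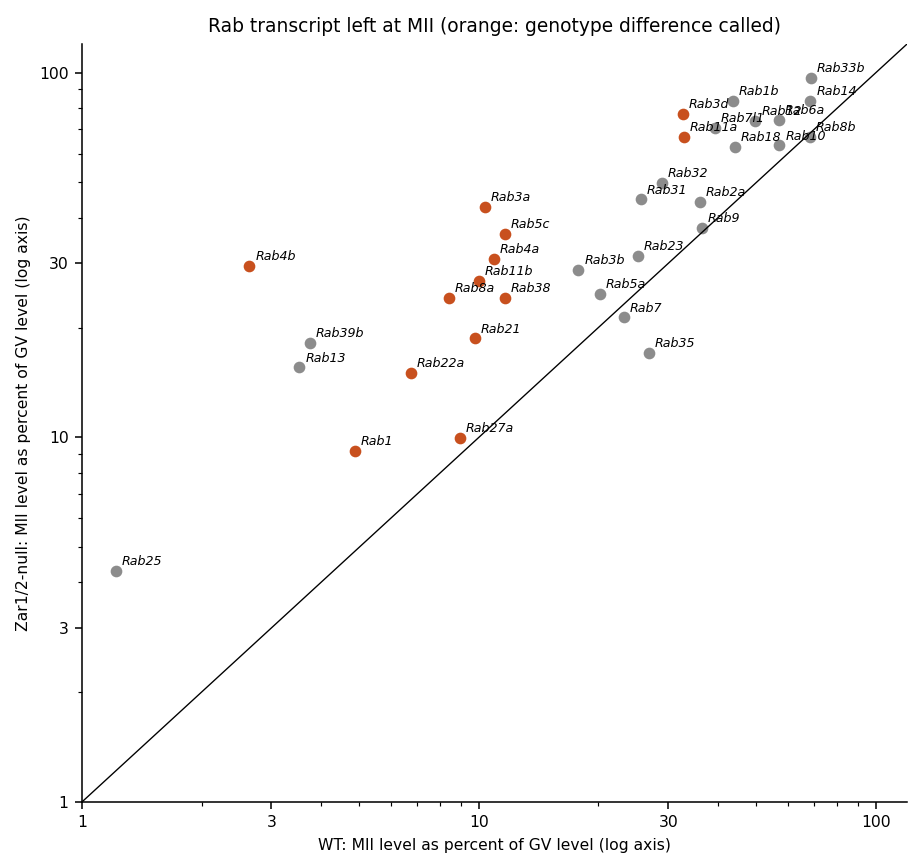
MII level as percent of GV level (ratio of means of 2 libraries) in WT (horizontal) and Zar1/2-null oocytes (vertical) on log axes, for Rab genes whose GV means reached 1 FPKM in both genotypes, with a line of equal percent and orange for genes whose genotype difference was called. Most points lie above the line, Rab4b farthest (2.64% against 29.6%), and Rab35, Rab7 and Rab8b below it.

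Close relatives often behaved differently, and shares within a subgroup do not depend on library scaling. RAB1A (encoded by Rab1) and RAB1B serve the same step of ER-to-Golgi traffic. Rab1b was at 16.8 and 14.9 FPKM in WT GV and 5.10 and 8.71 FPKM in WT MII oocytes, and at 7.30 and 10.9 and 6.41 and 8.88 FPKM in null ones, whereas Rab1 ended at 0.750 and 1.13 FPKM in WT and 1.21 and 0.661 FPKM in null MII oocytes. Rab1b therefore went from 43 to 48.7% of the pair at GV to 84.1 to 93.1% at MII, in both genotypes. In the Rab3 subgroup, which acts in regulated exocytosis, Rab3d held 58.3 and 45.8% of the summed FPKM in WT GV but 24.5 and 29.2% in null GV oocytes. Rab3b, at 9.93 and 11.9 FPKM in WT and 15.7 and 14.9 FPKM in null GV oocytes, held 25.5 and 34.4% and then 49.5 and 48.7%. At MII Rab3d held 72.9 and 68.9% in WT and 40.8 and 50.5% in null oocytes, and Rab3a 6.61 and 8.32% and 23.1 and 22.6%. Rab3c contributed at most 0.135% in a library. In the shares given for Rab3a, Rab3b and Rab3d the WT and null libraries of a stage did not overlap.

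Rab4b made up 22.4 and 26.4% of the Rab4 pair in WT GV and 28.2 and 30.1% in null GV oocytes, then 3.92 and 9.46% in WT MII against 26.9 and 30.2% in null MII oocytes. Among the Rab8, Rab10 and Rab13 genes, which deliver vesicles to the cell surface, Rab8a dropped from 47.2 and 40.01% in WT GV to 8.6 and 12% in WT MII oocytes. In null oocytes Rab8a went from 37.5 and 46.8% at GV to 24.2 and 21.9% at MII. Rab10 was at 25.6 and 28.8 FPKM in WT GV and 16.3 and 14.8 FPKM in WT MII oocytes. Its share of that subgroup went from 35.4 and 43.7% at GV to 64.4 and 60.9% at MII in WT oocytes. In null oocytes it went from 43.2 and 35.5% to 55.3 and 56.7%. Rab5c held 41.3 and 46.8% of the Rab5 subgroup in WT and 81.8 and 69.5% in null MII oocytes, with Rab5a at 52.9 and 41.1% and 15.8 and 26.8%. At GV Rab5c held 51.7 and 52.0% in WT and 59.7 and 65.7% in null oocytes. Rab2b was 4.97 to 6.94% of the Rab2 pair in WT libraries and 1.17 to 2.98% in null libraries over all stages. Rab32 was 11.5 and 10.6% of its subgroup with Rab38 and Rab7l1 in WT GV and 6.68 and 7.77% in null GV oocytes, and at MII 26.0 and 21.0% in WT and 13.7 and 13.8% in null oocytes. These shares are ratios within a library, and with 2 libraries a group they carry no test.

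**Figure D4:**
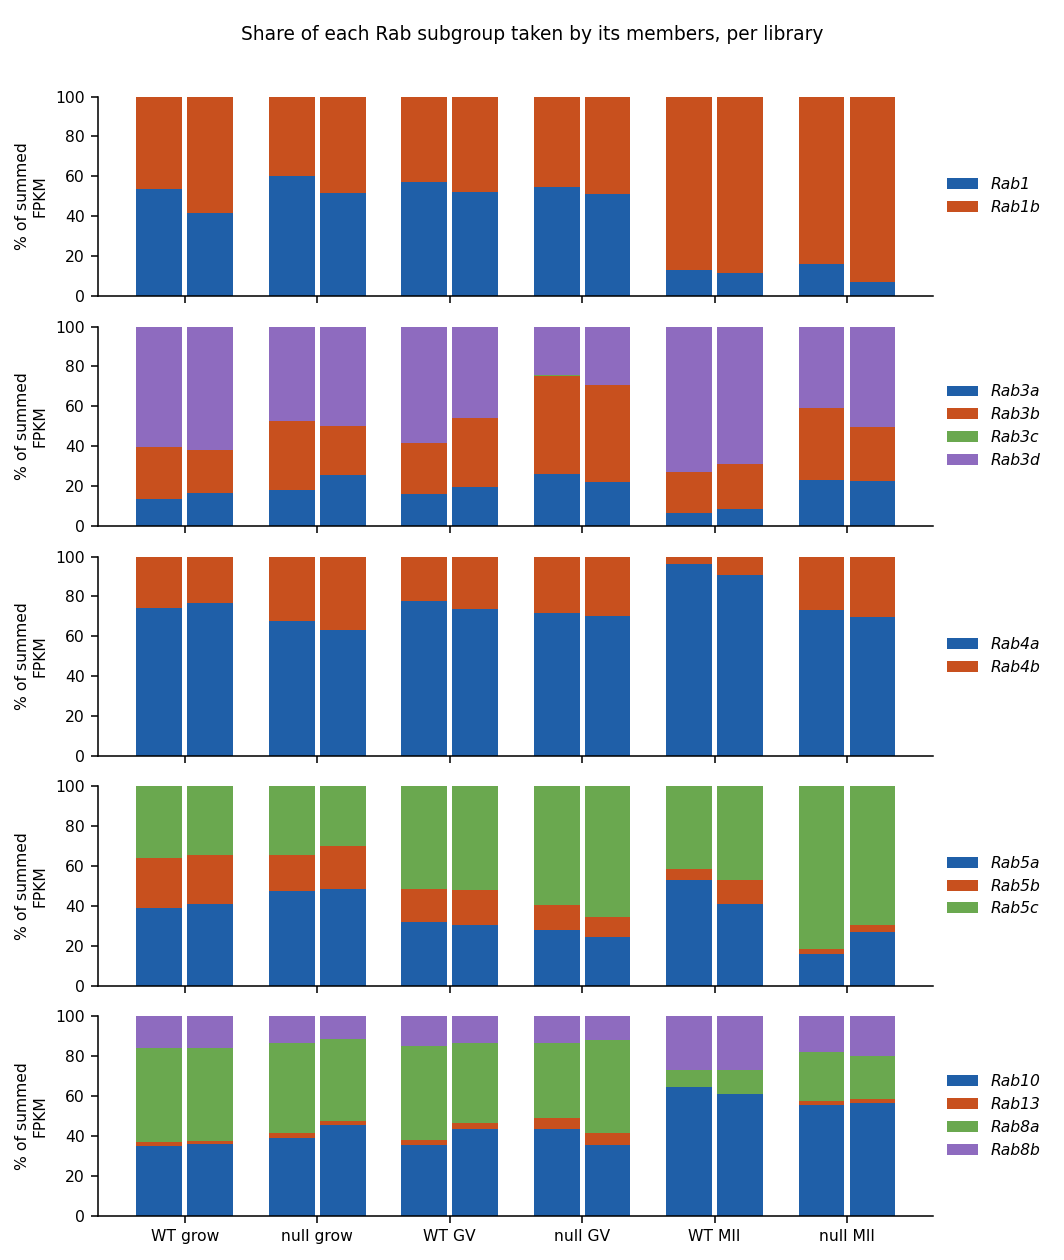
Share of summed FPKM (vertical axis, percent, from 0 to 100) taken by each member of 5 Rab subgroups in the 12 libraries, 2 bars per group. Rab1b holds most of the summed FPKM of its pair at MII in both genotypes, while Rab4b, Rab8a and Rab5c hold larger shares in null than in WT MII oocytes.

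What was left at MII was set beside the number of CPEs in the 3′UTR. CPEs were counted as TTTTAT or TTTTAAT on the transcript strand of the 3′UTR of the transcript with the longest coding sequence (mm9, GENCODE vM1), and 28 of the 42 Rab genes tested held at least 1 (66.7%), against 60.5% of 9811 genes with a 3′UTR of 100 bases or more. In the last 100 annotated bases it was 7 Rab genes (16.7%) against 20.0%. Among 37 Rab genes with a mean of 1 FPKM or more in WT GV oocytes, the median MII level was 10.6% of the GV level for the 12 without a CPE, 23.2% for the 13 with 1 to 2 and 38.6% for the 12 with 3 or more in WT oocytes. The medians over 8649 such genes of the whole table were 9.43%, 24.3% and 35.7%, near the Rab values. In null oocytes the Rab medians were 29.2%, 36.1% and 62.9%, and those of all genes 28.3%, 40.2% and 49.1%. The groups overlapped widely: Rab1, with 3 CPEs, kept 4.87% in WT, and Rab1b, with 0, kept 43.6%. The median 3′UTR was 579, 1275 and 2087 bases in the 3 Rab groups, so CPE number and length cannot be told apart here. Over all genes with a 3′UTR under 1000 bases, the median was 8.33% without and 26.7% with a CPE in WT oocytes, whereas among the Rab genes of that length it was 6.94% for 8 and 10.7% for 4, and in null oocytes the order of these 12 turned, with 29.2% without and 24.1% with a CPE. From 1000 to under 2000 bases the WT medians were 26.8% for 3 Rab genes without and 34.5% for 10 with a CPE, beside 14.2% and 30.9% over all genes. At 2000 bases or more they were 32.6% for the 1 without and 25.1% for 11 with a CPE, beside 17.3% and 30.6% over all genes. Within a length class the few Rab genes thus showed no common order, whereas over all genes the WT median was higher with a CPE in each class. This is a description across genes, with no test, and the annotated 3′ end need not be the one used in oocytes.

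The 30 bases around the CPE nearest to the annotated 3′ end are shown for the 5 Rab genes with the most transcript left at MII in WT oocytes, followed by Rab11a, the most abundant Rab gene in null MII oocytes, and Rab8a, the relative of Rab8b that fell to 8.41%. Each lies in the annotated 3′UTR and is read 5′ to 3′ on the transcript strand from mm9, with the CPE in capitals. Rab33b holds 5 CPEs in all, Rab14 4, Rab8b 4, Rab10 4, Rab6a 7, Rab11a 5 and Rab8a 1, and Rab25, Rab4b and Rab3a hold 0.
Rab33b, chr3:51299601-51299630, plus strand: gtacatctgtgaTTTTATtttggctgacat
Rab14, chr2:35036666-35036695, minus strand: cacattttaagcTTTTATacctttatcttg
Rab8b, chr9:66691525-66691554, minus strand: tttaaaaatgaaTTTTATtccaggtgaact
Rab10, chr12:3247620-3247649, minus strand: ttgaaacctgagTTTTATttgcttactatt
Rab6a, chr7:107789721-107789750, plus strand: ttgactcttttgTTTTATtttgacatggca
Rab11a, chr9:64563149-64563178, minus strand: atttggacttttTTTTAATctattgatttg
Rab8a, chr8:74704707-74704736, plus strand: ctaagatgatttTTTTATttttccagattc
The motif starts 50 bases from the annotated end in Rab6a, 61 in Rab11a and 64 in Rab8b, and 208 or more bases from it in the other 4. A match of these letters is not a site shown to be bound or used.

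**Figure D5:**
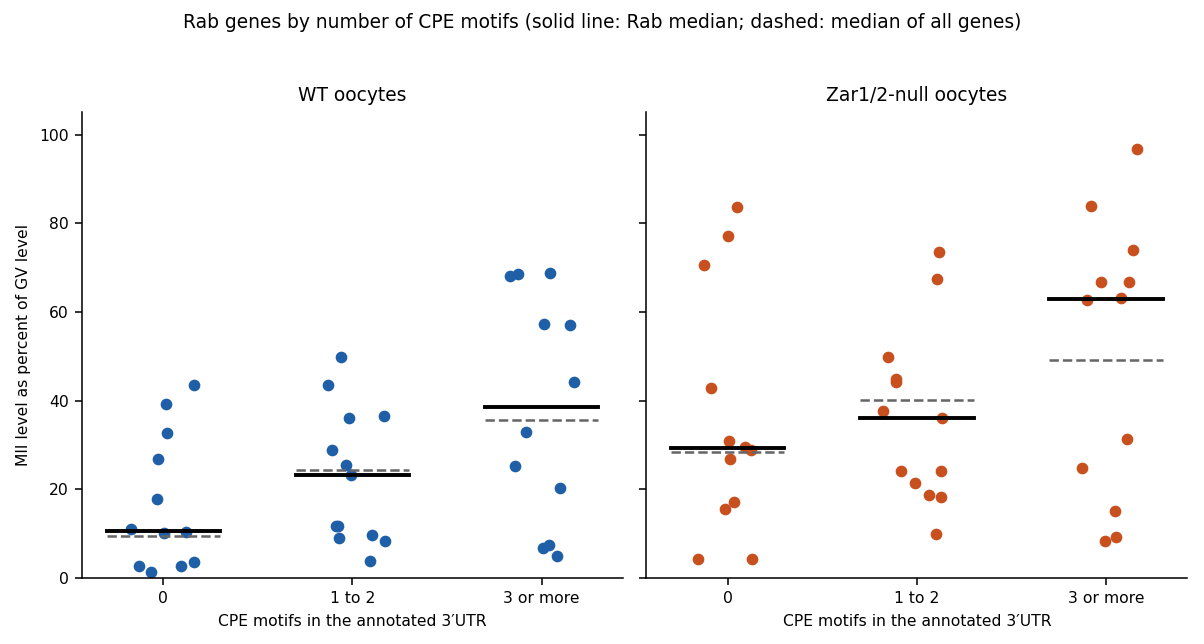
MII level as percent of GV level (vertical axis, linear from 0) for 37 Rab genes by number of CPE motifs in the annotated 3′UTR, in WT (left) and Zar1/2-null oocytes (right), with points for genes, solid lines at Rab medians and dashed lines at medians of all genes. The WT Rab medians go from 10.6% through 23.2% to 38.6% and lie close to those of all genes.

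The genes that act on Rab proteins moved much as the table did. Of 152 listed prenylation and GDI genes, GEFs, GAPs and effectors, 146 were found and 116 tested. In null oocytes 11 were higher and 24 lower in growing, 2 and 50 at GV and 21 and 13 at MII, where the shares over all genes were 10.6% and 24.4%, 2.83% and 40.6%, and 21.5% and 10.3%. The medians were -0.17, -0.39 and 0.05 beside -0.16, -0.38 and 0.06 over all genes. Trappc9, a subunit of the TRAPPII exchange complex, was at 644 and 652 FPKM in WT and 322 and 263 FPKM in null growing oocytes and at 411 and 299 against 120 and 167 FPKM at GV. Appl1, an effector of RAB5 on early endosomes, was at 33.3 and 30.4 against 16.3 and 13.4 FPKM in growing and 22.9 and 18.2 against 6.32 and 6.90 FPKM at GV. Tbc1d19, of a GAP family, fell in null growing oocytes (-0.996 ± 0.189) and Evi5, a GAP-domain protein that binds RAB11, in null GV oocytes (-1.04 ± 0.15). Other regulators had the largest called differences at MII. Trappc2l, another TRAPP subunit, was at 0.485 and 0.512 FPKM in WT and 80.3 and 69.8 FPKM in null MII oocytes (5.66 ± 0.14, adjusted p = 9.75e-10), after 119 and 106 FPKM in WT and 104.9 and 105.4 FPKM in null GV oocytes. Trappc6b was at 6.56 and 5.23 against 41.7 and 34.5 FPKM (2.50 ± 0.22) and Rabac1, which helps release Rab proteins from GDI, at 5.91 and 4.0 against 34.1 and 28.4 FPKM (2.45 ± 0.19). The difference in maturation change was called higher in null oocytes for 33 of the 116 genes, where 33.9% of all genes were. Gdi2, which keeps Rab proteins soluble, stood at 121 and 108 FPKM in WT and 90.2 and 97.2 FPKM in null GV oocytes and at 6.80 and 9.68 against 7.53 and 7.66 FPKM at MII.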

How the data were processed

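Libraries were made by Smart-seq2 with ERCC spike-in RNA added, and reads were trimmed to 50 bases. The authors mapped them to mm9 with TopHat2 2.1.1, kept unique alignments, computed FPKM with Cufflinks 2.2.1 on UCSC gene models and scaled FPKM to the spike-ins. The deposited FPKM table holds 23230 genes in 12 libraries; it has no counts, and the read totals that the study states per library are not used here, so no counting error is given. Unique mapping can lower genes with near-identical copies.

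The 12 libraries were fitted as 6 groups with limma 3.58.1 (R 4.3.3) on log2(FPKM + 1), where fold changes of genes of low level are understated, with genes at 1 FPKM or more in at least 1 library, eBayes with a trend, and Benjamini-Hochberg adjustment over 11502 genes at 0.05. The fit was tested on simulated data in which genes of at least 5 FPKM in WT MII oocytes were changed by more than 3-fold, with 1 spread for all genes. That setting does not show how smaller changes or genes of lower level are called. A second rule took group means, set to at least 1 FPKM, more than 3-fold apart. The ERCC factors were recovered from the table to undo the scaling. Alternatives were no ERCC scaling, median scaling, a pseudocount of 0.1 FPKM, a mean of 5 FPKM, no filter, a replicate block, only the libraries of a comparison, no trend and each library left out. The members, lists and tests were chosen with earlier results of these data known. Values per library are given for the 6 Rab genes highest in WT GV oocytes, for up to 6 called per direction and genotype comparison with a mean of 5 FPKM or more, and for subgroups with 2 members at 10 FPKM; others named with values were chosen after their values were seen. Regulators named are the 3 with the largest called change at 10 FPKM or more. Rab6a is annotated as Rab6 in GENCODE vM1. Gene roles are background knowledge.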

Additional observations from a re-analysis of the deposited data

Results flagged for a closer look

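A test of the difference itself (limma contrast, Benjamini-Hochberg over all genes) called 26 differences between stages in the genotype effect on Rab transcripts. Each is given here as a log2 difference, and a gene counts once per contrast. Rab1, Rab3d, Rab4b and Rab5b were called in both contrasts, which share the GV libraries, so their results are not separate. Between GV and MII, the effect moved upward in 16 of 42 genes, where 33.9% of all genes did. The recycling genes among them were Rab4b at 1.87, Rab4a at 1.37, Rab11a at 1.00 and Rab11b at 0.81. The early endosome genes were Rab17 at 1.15, Rab5c at 1.12, Rab21 at 0.92, Rab22a at 0.82 and Rab5b at 0.80. The genes of exocytosis and the cell surface were Rab8a at 1.27, Rab3a at 1.17, Rab3d at 1.13 and Rab27a at 0.55. Rab38 of lysosome-related organelles stood at 1.06, and Rab1 and Rab2b of ER-to-Golgi traffic at 0.84 and 0.57. Without ERCC scaling Rab4b, Rab4a, Rab8a, Rab17 and Rab5c were still called, and Rab27a and Rab2b turned negative. In the fits without 1 library, 7 of the 16 were called each time. The call of Rab1 was lost in 9 of 12 such fits (adjusted p up to 0.180, without WT GV replicate 1), that of Rab38 in 7 (0.159, without WT MII replicate 1), Rab27a in 7, Rab2b in 5, Rab21 in 4, Rab11b in 3 and Rab5b, Rab22a and Rab3d in 1 each.

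Between growing and GV, in a contrast added after the data were seen, the effect moved downward in 10 of 42 genes, where 11.3% of all genes did. The genes of early endosomes and nearby compartments were Rab31 at -2.21, Rab5a at -1.35, Rab5b at -0.85 and Rab24 at -0.78. The ER and Golgi genes were Rab1 at -1.21, Rab39b at -1.01 and Rab30 at -0.97, and the others were Rab3d at -0.96, Rab4b at -0.88 and Rab35 at -0.74. Rab31 and Rab5a were called higher in null growing oocytes and lower in null GV oocytes, and these 2 differences were called under all 3 scalings. Of the other 8, the fits without 1 library left Rab39b and Rab30 called each time and ended the call of Rab3d and Rab35 in 11 of 12 fits. No cause was tested for any of these values.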

How the results depend on the processing

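With 2 libraries a group and no read counts, many Rab calls changed with the scaling, the pseudocount or the filter on low values, and the cause was not tested. Counts are of Rab genes called higher and lower in null oocytes, beside 9 and 8 (growing), 1 and 23 (GV) and 7 and 5 (MII). Without ERCC scaling growing gave 10 and 5, GV 2 and 8, and MII 10 and 10. With median scaling growing gave 10 and 4, GV 2 and 5, and MII 10 and 9. The fall from growing to GV in WT went from 10 to 1 under both. From GV to MII, without scaling and with median scaling, WT gave 7 and 12 higher and 19 and 17 lower, and null oocytes 9 and 11 higher and 18 and 15 lower. The maturation difference gave 5 and 6 higher and 2 lower under each, and the growth difference 2 under each.

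A pseudocount of 0.1 FPKM gave 3 higher and 7 lower in growing, 0 and 22 at GV and 10 and 6 at MII. It gave 0 higher and 6 lower from growing to GV in WT and 2 in the growth difference. A mean of 5 FPKM, which tests fewer genes, left 1 higher and 5 lower in growing, 0 higher and 15 lower at GV, 3 lower at MII, 4 lower from growing to GV, 24 and 20 lower from GV to MII in WT and null oocytes and 1 in the growth difference. With no filter, 0 were higher at GV and from growing to GV, and 5 remained in the growth difference. Only the libraries of a comparison gave 5 higher in growing, 0 higher from growing to GV and 5 in the growth difference.

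By the 3-fold rule, growing gave 1 higher under no ERCC scaling, median scaling or a floor of 0.1 FPKM, and 0 lower with median scaling and 2 with that floor. GV gave 1 lower without scaling and 4 with the floor, and MII 2, 2 and 3 higher in the same order of settings.

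Leaving out each library in turn gave 4 to 9 higher and 3 to 9 lower in growing, 0 to 1 and 11 to 23 at GV and 5 to 8 and 1 to 5 at MII. It gave 0 to 2 and 4 to 14 from growing to GV, 0 and 39 to 40 from GV to MII in WT, 0 and 26 to 33 in null oocytes, 9 to 18 and 0 for the maturation difference and 0 to 1 and 4 to 11 for the growth difference. By the 3-fold rule it gave 0 to 2 higher and 1 lower in growing, 0 and 0 to 2 at GV and 1 and 1 at MII. The lowest counts came without null growing replicate 2 (3 lower in growing), WT GV replicate 1 (11 lower at GV, 4 in the growth difference), WT MII replicate 2 or null MII replicate 1 (1 lower at MII) and WT MII replicate 1 (9 in the maturation difference). A lone library is assumed to vary like the other groups.

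Deviations of same-numbered libraries correlated weakly between groups, at -0.117 to 0.163 and mostly above 0. Each group gives a single difference between its libraries, so these values cannot decide whether the numbers pair them. A replicate block gave 9 and 9 in growing, 1 and 23 at GV, 8 and 5 at MII, 1 and 13 from growing to GV, 41 and 32 lower from GV to MII in WT and null oocytes, 17 in the maturation and 11 in the growth difference. Of the 25 gene results that the naming rule took from the genotype and maturation comparisons, 8 lost their call without ERCC scaling, 9 with median scaling, 5 with no filter and 3 with a pseudocount of 0.1 FPKM, as did 42 of 300 leave-one-out values, and none of the 25 changed sign; sign changes of other Rab genes are given beside their values.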
